A study of Rattus norvegicus with 10 samples.

Results

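Cholesterol is made from acetyl-CoA by a long chain of enzymes, and 8 genes of that system were followed here in the RNA of rat milk whey: Hmgcs1, Idi1, Fdps, Fdft1, Sqle, Cyp51 and Dhcr7, which encode enzymes, and Insig1, which encodes a brake on the pathway. Members were every non-control probe that the array annotation assigned to one of these symbols, which gave 14 of the 41012 probes, with 4 for Insig1, 2 each for Hmgcs1, Idi1 and Fdps, and 1 for each of the others. Early enzymes build isoprene units from acetyl-CoA, middle enzymes join them into squalene, and late enzymes close and trim the sterol rings. Transcription of most of these genes is switched on by SREBP-2, a membrane-bound factor that is escorted out of the endoplasmic reticulum by SCAP when sterols are low, and INSIG proteins hold SCAP back when sterols are high. The lactating mammary gland makes part of the cholesterol that leaves in milk, where it is carried mainly by the membrane around the fat globules.

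The arrays were 1-colour Agilent rat whole-genome arrays, 1 for each of 10 RNA samples. All but 1 of them were whey, not tissue: milk of 3 F344/N dams, 14 weeks old when obtained in pregnancy, was collected after an oxytocin injection on d 2, d 9 and d 16 postpartum, then freed of fat, cells and casein by centrifugation and passed through filters down to 0.22 µm. The labels number the dams alike on each day, which was read as the same animals milked on each day. Dams were separated from their litters beforehand and lightly anaesthetized with sevoflurane, and no other treatment is described. The serum array held a mix of RNA from 3 dams bled on d 21, so it has no replicate and no whey sample of its own day. Each array reads the share of a transcript in the RNA of 1 sample, so that fewer contributing cells and less RNA per cell cannot be told apart. All 3 d 16 arrays and the serum array lay on 1 slide with its own scan day, so d 16 and that slide cannot be told apart, whereas the d 9 arrays shared a slide with 1 of the 3 d 2 arrays. The 75th percentile of signal ran from 12.5 to 83.4 over the whey arrays and was 4.09 on the serum array. Levels below are log2 normalized intensities and changes are differences between them. They rank arrays for 1 probe and say nothing of which gene is the more abundant.

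The sequences that the arrays read are shown first for 3 enzyme probes, because each covers more of the genome than its own 60 bases and so reads bases brought together from separate stretches of its gene. The Idi1 probe A_44_P251944 lies within chr17:72560094-72560498, and the Fdps probes A_44_P143567 and A_44_P432965 lie within chr2:181169679-181170179 and chr2:181170192-181170336, all on the minus strand in rn4, with spans of 405, 501 and 145 bases. They are written 5′ to 3′ with no base marked.
Idi1 A_44_P251944: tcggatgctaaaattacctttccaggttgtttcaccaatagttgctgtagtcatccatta
Fdps A_44_P143567: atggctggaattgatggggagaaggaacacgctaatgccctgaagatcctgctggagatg
Fdps A_44_P432965: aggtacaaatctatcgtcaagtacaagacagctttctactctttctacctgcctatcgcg
The 4 Insig1 probes lie within 1253 bases of chr4:2577508-2578760 on the minus strand in rn4, so they read 1 stretch of 1 transcript and are not independent samples of it.

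Promoters are shown for the genes whose RNA moved apart, Insig1 and Cyp51, which were higher in later whey, and Idi1, which was lower. Each is the 250 bases before the RefSeq start in GRCr8, 5′ to 3′ in the direction of the gene, with capitals marking the CCAAT box (CCAAT), the GC box (GGGCGG) and the E-box (CACGTG), on either strand.
Insig1, chr4:8057770-8058019, minus strand: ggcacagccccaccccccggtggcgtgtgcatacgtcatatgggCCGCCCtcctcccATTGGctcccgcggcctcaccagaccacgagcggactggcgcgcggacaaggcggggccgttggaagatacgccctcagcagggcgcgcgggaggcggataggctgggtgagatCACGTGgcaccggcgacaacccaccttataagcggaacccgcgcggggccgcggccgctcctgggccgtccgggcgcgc
Cyp51, chr4:30991443-30991692, plus strand: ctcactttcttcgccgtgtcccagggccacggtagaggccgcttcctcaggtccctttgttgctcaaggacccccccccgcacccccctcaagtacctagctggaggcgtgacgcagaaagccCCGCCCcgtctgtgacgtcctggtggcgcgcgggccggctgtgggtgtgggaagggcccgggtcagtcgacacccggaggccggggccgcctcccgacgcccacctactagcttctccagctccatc
Idi1, chr17:66547525-66547774, minus strand: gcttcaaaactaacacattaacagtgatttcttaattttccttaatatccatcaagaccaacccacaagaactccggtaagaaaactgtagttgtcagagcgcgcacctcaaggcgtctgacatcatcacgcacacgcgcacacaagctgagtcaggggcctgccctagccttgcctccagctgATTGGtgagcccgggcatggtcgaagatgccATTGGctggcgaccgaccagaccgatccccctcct
The E-box of Insig1 begins 79 bases before the start, and its CCAAT box, read on the opposite strand, begins 193 bases before it. No marked match overlaps another in these 3 windows. RefSeq promoters were at hand for 6 of the 8 genes. The CCAAT box stood in 4 of the 6 and in 34.3% of all 27457 promoters, the GC box in 5 of the 6 and in 32.4% of all, and the E-box in that of Insig1 alone and in 5.79% of all. The sterol element written TCACNCCAC, searched on both strands, matched in 0 of the 6 windows and in 0.976% of all promoters. These matches describe letters and not binding.

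Detection, meaning a spot well above background with a signal over 20 on at least 1 array of the group, was reached by all 14 member probes on d 2 and on d 9, by 13 on d 16 and by 1 on the serum array. The share of all probes that reached it was 28.7% on d 2, 39% on d 9, 32.3% on d 16 and 8.6% on the serum array. The probe missing at d 16 was the Hmgcs1 probe A_44_P487240, which was well above background on 3 of the 9 whey arrays. Fdft1 and Dhcr7 were well above background on 8 of the 9, and the other 11 probes on all 9, beside 23.9% of all probes.

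**Figure D1:**
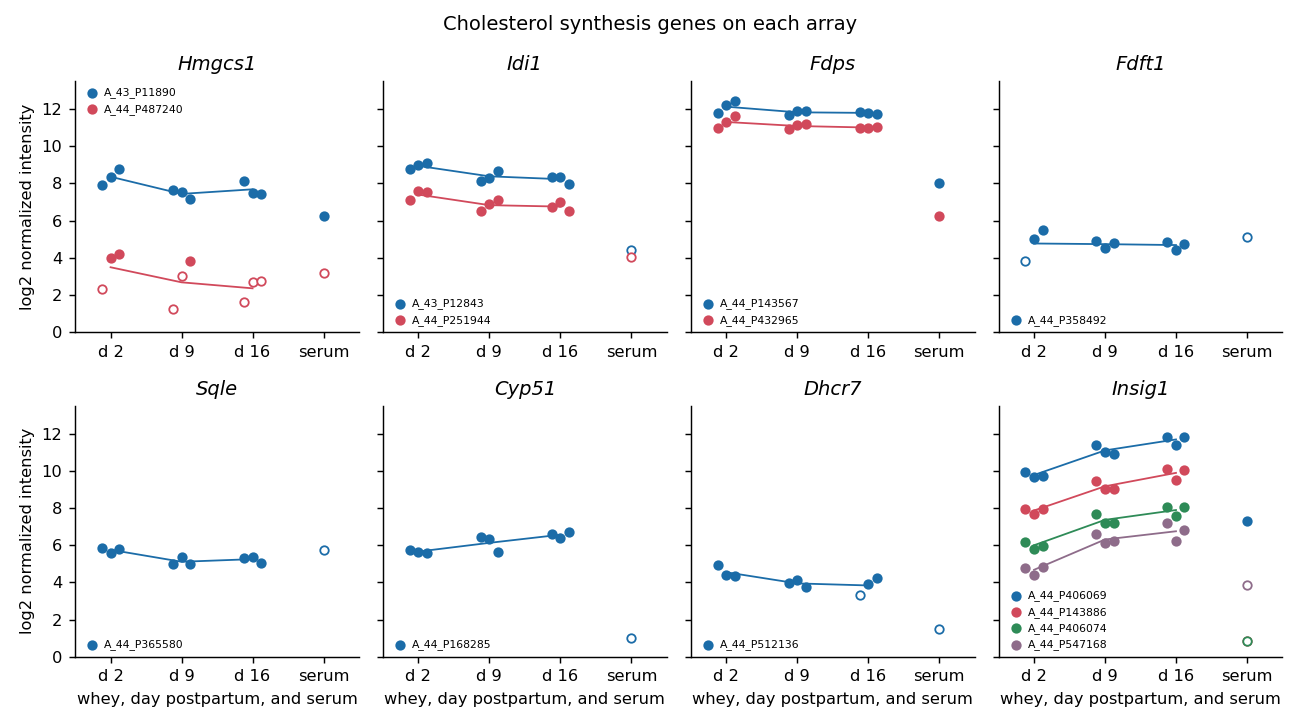
Log2 normalized intensity of every member probe on every array, with 1 panel for each gene, 1 colour for each probe, and lines through the means of 3 dams. Filled points were well above background and open points were not, and 2 Insig1 probes coincide at 0.83 in serum. Insig1 climbs after d 2 in all 4 probes, Cyp51 is highest at d 16, and on this scale the other enzymes lie level or lower after d 2.

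The clearest movement was in Insig1, whose protein retains SCAP in the endoplasmic reticulum and so restrains the pathway. On the probe A_44_P406069 the log2 level was 9.92, 9.65 and 9.74 in the 3 d 2 samples, 11.38, 10.99 and 10.92 at d 9, and 11.83, 11.40 and 11.82 at d 16. Every d 9 and d 16 sample was above every d 2 sample, and all 3 dams moved the same way. The rise over d 2 was 1.32 ± 0.18 (SE) on the log2 scale at d 9, or 2.50-fold (limma adjusted p = 0.00483), and 1.91 ± 0.18 at d 16, or 3.76-fold (limma adjusted p = 0.000616).

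The other 3 Insig1 probes gave the same picture. A_44_P143886 stood at 7.95, 7.68 and 7.96 at d 2, at 9.42, 9.04 and 9.03 at d 9, and at 10.11, 9.49 and 10.06 at d 16. A_44_P406074 went from 6.19, 5.82 and 5.98 at d 2 to 7.66, 7.22 and 7.21 at d 9 and 8.04, 7.59 and 8.04 at d 16. The last, A_44_P547168, went from 4.77, 4.41 and 4.85 to 6.60, 6.10 and 6.22 and then to 7.19, 6.22 and 6.83. No d 2 value reached a later value on any of them. Across the 4 probes the rise was 1.30 to 1.63 at d 9 (limma adjusted p = 0.00483 to 0.00800) and 1.89 to 2.07 at d 16 (limma adjusted p = 0.000616 to 0.00174), that is 3.72-fold to 4.21-fold at d 16. The size moved with the processing, to between 0.66 and 1.08 at d 9 and 0.96 and 1.75 at d 16 with normexp background correction, and to between 2.82 and 3.21 at d 9 and 2.46 and 2.76 at d 16 when arrays were scaled to their spike-in controls. From d 9 to d 16 the difference was 0.44 to 0.72 and did not pass (limma adjusted p = 0.128 to 0.407), and with spike-in scaling it turned negative on all 4 probes (-0.44 to -0.24). With slide as a fixed block, where the d 9 rise rests on the 1 d 2 array of the same slide, its size was 1.20 to 1.46 but the call was lost (limma adjusted p = 0.0524 to 0.105).

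Hmgcs1 encodes the cytosolic synthase that joins acetyl-CoA and acetoacetyl-CoA. The probe A_43_P11890 read 7.91, 8.36 and 8.79 at d 2, 7.63, 7.54 and 7.13 at d 9, and 8.14, 7.48 and 7.41 at d 16. The d 9 samples all lay below the d 2 samples, while at d 16 the sample of dam 1 lay within the d 2 range. The difference was -0.92 ± 0.28 (SE) at d 9 (limma adjusted p = 0.0599) and -0.68 ± 0.28 at d 16 (limma adjusted p = 0.113), so neither passed. The d 9 difference passed in 5 of 21 alternatives. Without d 2 dam 1 it was -1.14 (limma adjusted p = 0.0406), and with normexp background correction it was -0.68 (0.0180). The other probe, A_44_P487240, ranged from 1.22 to 4.20 over the whey arrays, mostly below the background criterion, and with dam as a block its d 16 difference of -1.13 passed (limma adjusted p = 0.0294, against 0.293 without the block).

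Idi1 encodes the isomerase that interconverts the isoprene units IPP and DMAPP. The probe A_43_P12843 read 8.77, 8.97 and 9.07 at d 2, 8.13, 8.31 and 8.69 at d 9, and 8.35, 8.36 and 7.96 at d 16. All later samples were below all d 2 samples. It fell by 0.72 ± 0.19 (SE) on the log2 scale at d 16 (limma adjusted p = 0.0254), or 1.64-fold, and the d 9 difference of -0.56 did not pass (limma adjusted p = 0.0749). With spike-in scaling the d 16 difference was -0.11 (limma adjusted p = 0.948). The d 16 call was also lost without d 2 dam 2 (limma adjusted p = 0.0719), without d 2 dam 3 (0.0698) and without d 16 dam 3 (0.0866). The Tukey-Kramer test did not call the d 16 fall either. Conversely, the d 9 call was gained in 5 of 21 alternatives. These included the fit without d 9 dam 3 (limma adjusted p = 0.0336), normexp background correction (0.0331) and an intensity trend with robust prior (0.0279).

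The second Idi1 probe, A_44_P251944, read 7.08, 7.57 and 7.54 at d 2, 6.53, 6.86 and 7.09 at d 9, and 6.71, 6.997 and 6.54 at d 16. Only its d 16 samples all lay below the d 2 samples, since dam 3 at d 9 reached the lowest d 2 value. It differed from d 2 by -0.57 at d 9 and -0.65 at d 16, close to the first probe, with limma adjusted p = 0.0991 and 0.0535. The d 16 difference passed in 9 of 20 alternatives. It did so, among others, with dam as a block (limma adjusted p = 0.0440), without d 2 dam 1 (0.0327), without d 9 dam 1 (0.0464) and without d 9 dam 3 (0.0435). With spike-in scaling it was -0.0042 (limma adjusted p = 0.998).

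Fdps encodes farnesyl diphosphate synthase, at the point where the sterol branch and protein prenylation draw on the same isoprenoids. The probe A_44_P143567 read 11.77, 12.19 and 12.40 at d 2, 11.68, 11.89 and 11.89 at d 9, and 11.82, 11.80 and 11.74 at d 16. The other, A_44_P432965, read 10.98, 11.30 and 11.62, then 10.92, 11.14 and 11.19, then 10.98, 10.97 and 11.05. On both probes the days overlapped, and the d 2 sample of dam 1 was the lowest of its day. The differences from d 2 ran from -0.33 to -0.22 over both probes and both days, and none passed (limma adjusted p = 0.180 to 0.406). The 95% interval of the d 16 difference was -0.73 to 0.06 for the first probe, so a fall by more than 0.73 or a rise by more than 0.06 lies outside it. Without d 2 dam 1 that difference was -0.51 and passed (limma adjusted p = 0.0332).

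Fdft1 encodes squalene synthase, which commits carbon to sterols. It read 3.83, 4.99 and 5.48 at d 2, where dam 1 was not well above background, 4.88, 4.54 and 4.78 at d 9, and 4.84, 4.44 and 4.76 at d 16. Its d 2 samples spanned every later value, and the differences of -0.04 and -0.08 did not pass (limma adjusted p = 0.959 and 0.891). The 95% interval at d 16, -0.96 to 0.80, spans differences of the size seen in Sqle.

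Sqle encodes squalene epoxidase, the oxygen-requiring step after squalene. It read 5.85, 5.59 and 5.81 at d 2, 4.98, 5.35 and 4.99 at d 9, and 5.31, 5.38 and 5.05 at d 16. All 6 later samples were below all 3 d 2 samples, and the level was lower in 3 of 3 dams on both days. It fell by 0.64 ± 0.16 (SE) at d 9 (limma adjusted p = 0.0295) and by 0.50 ± 0.16 at d 16 (limma adjusted p = 0.0469). The d 16 call was lost with dam as a block (limma adjusted p = 0.0675). Neither call held with the Tukey-Kramer test (adjusted p = 0.0854 at d 9). Each call depended on single arrays, since 5 of the 9 fits that left out 1 array lost the d 9 call (limma adjusted p up to 0.0734) and 7 of the 9 lost the d 16 call (up to 0.151). With normexp background correction, the d 9 and d 16 differences shrank to -0.07 and -0.08.

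Cyp51 encodes lanosterol 14-alpha-demethylase, the first enzyme after ring closure, and was the enzyme among the members that rose. It read 5.76, 5.62 and 5.59 at d 2, 6.43, 6.33 and 5.62 at d 9, and 6.60, 6.36 and 6.73 at d 16. At d 9 the sample of dam 3 stayed within the d 2 range while the other two were above it, and at d 16 all 3 were above it. It was higher at d 16 by 0.91 ± 0.22 (SE) (limma adjusted p = 0.0206), or 1.87-fold, whereas the d 9 difference of 0.47 did not pass (limma adjusted p = 0.179). Leaving out d 9 dam 3 gave 0.72 at d 9 (limma adjusted p = 0.0200), and spike-in scaling gave 2.05 at d 9 (0.0191). With spike-in scaling the d 16 difference was 1.61 and did not pass (limma adjusted p = 0.186). The d 16 call was also lost without d 2 dam 2 (limma adjusted p = 0.0599), d 2 dam 3 (0.0539), d 16 dam 1 (0.0564) or d 16 dam 3 (0.0733), with differences of 0.82 to 0.89 in those 4 fits. The Tukey-Kramer test did not call the d 16 rise either.

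Dhcr7 encodes a reductase that ends one branch of the route to cholesterol. It read 4.92, 4.40 and 4.32 at d 2, 3.95, 4.12 and 3.76 at d 9, and 3.33, 3.93 and 4.25 at d 16, where dam 1 was not well above background. Every later sample was below every d 2 sample, yet the mean differences of -0.60 at d 9 and -0.71 at d 16 did not pass (limma adjusted p = 0.148 and 0.0784).

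**Figure D2:**
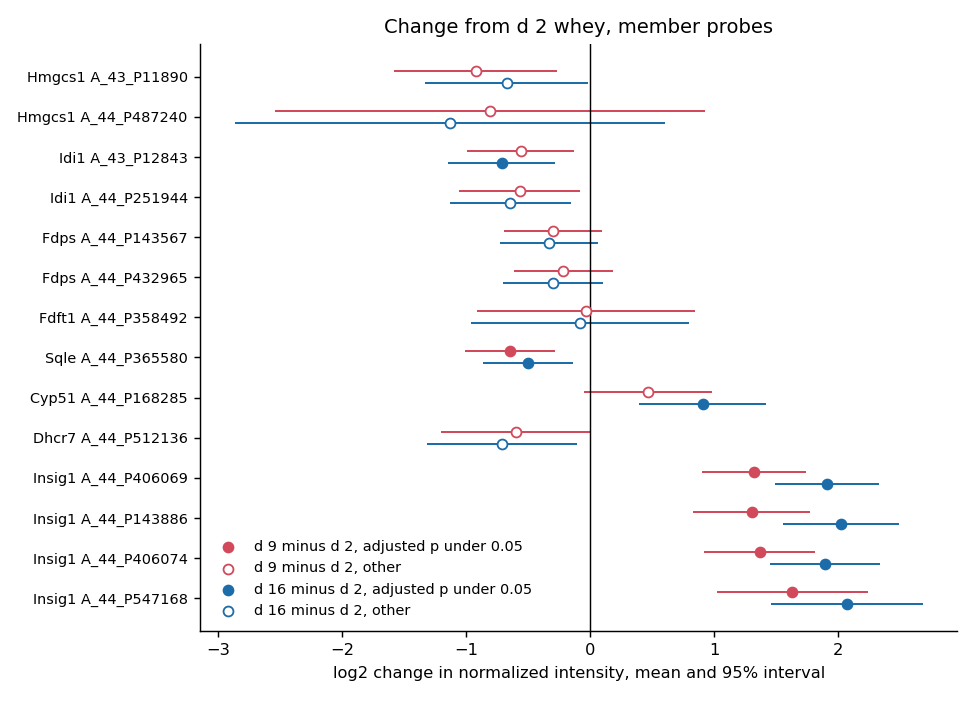
Log2 change from d 2 whey for each of the 14 member probes, with its mean over 3 dams and the 95% interval from limma. Filled points passed an adjusted p of 0.05, and the 4 Insig1 probes at 1.30 to 2.07 stand to the right of every enzyme probe, of which Cyp51 is the highest at 0.47 and 0.91.

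Counted together, 5 of the 14 probes passed from d 2 to d 9, the 4 Insig1 probes higher and Sqle lower, beside 17.7% of the 16849 probes tested, of which 11.2% were higher and 6.46% lower. From d 2 to d 16, 7 of the 14 passed, the 4 Insig1 probes and Cyp51 higher and Sqle and Idi1 lower, beside 28.5% of all, with 16% higher and 12.5% lower. By gene these are 2 and 4 of 8. From d 9 to d 16, 0 of the 14 passed with limma, beside 1.42% of all. The Tukey-Kramer test called 0 of all 16849 probes there, so its 0 of the 14 says nothing of the members. With normexp correction 2 of the 14 passed, beside 869 of all 16849. An unadjusted limma p was under 0.05 for 3 of the 14, beside 3157 of all. The F test over the 3 days called 7 of 14, beside 25.6% of all, and with dam as a block it called 4, beside 4307 of all. Days did not overlap for 8 of the 14 probes at d 9, beside 38.8% of all, and for 9 at d 16, beside 48.2%. Of the 10 enzyme probes, 9 had a negative difference at d 9 and 9 at d 16, with medians of -0.56 and -0.57 beside 0.11 and 0.04 over all tested probes, and signs on both days turn with spike-in scaling as given next. Dams differed on 0 of the 14 probes (limma adjusted p = 0.397 to 0.985), as on 0% of all tested probes, with an unadjusted p under 0.05 for 2 of the 14 and for 1773 of all.

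The signs of the enzyme differences depended on how arrays were scaled. Scaling to the spike-in controls, which varied 1.52-fold over the arrays, moved the median change of all tested probes to 1.58 at d 9 and 0.64 at d 16, and put all 10 enzyme probes above 0 at d 9 (0.50 to 2.05) and 5 of the 10 at d 16 (-0.66 to 1.61 over the 10). On that scale Sqle was 0.87 above d 2 at d 9 and 0.18 above at d 16, and neither value passed, while relative to the median of all tested probes Sqle remained lower, by -0.71 at d 9. A ratio of unscaled signals on 1 array needs no scaling, so Insig1 was also divided by each enzyme on the same array. Relative to the d 2 mean, the log2 ratio of Insig1 to Idi1 lay between -0.17 and 0.33 at d 2, between 1.34 and 2.34 at d 9 and between 2.18 and 2.93 at d 16. The Insig1 to Cyp51 ratio moved least, from between -0.09 and 0.07 at d 2 to between 0.44 and 1.17 at d 9 and between 0.79 and 0.95 at d 16. For all 7 enzymes the d 9 and d 16 ratios lay above the d 2 ratios without overlap. All 7 share the Insig1 probe A_44_P406069, so they are not 7 separate observations. How many probes would separate the days likewise under that numerator was not computed. Without a ratio, normalized values did not overlap for 38.8% of all tested probes at d 9 and 48.2% at d 16. The highest d 2 ratio to Fdft1, 1.02, and the highest d 16 ratio to Dhcr7, 3.08, rest on the dam 1 arrays where the enzyme was not well above background. These ratios show unequal change and not which gene moved.

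**Figure D3:**
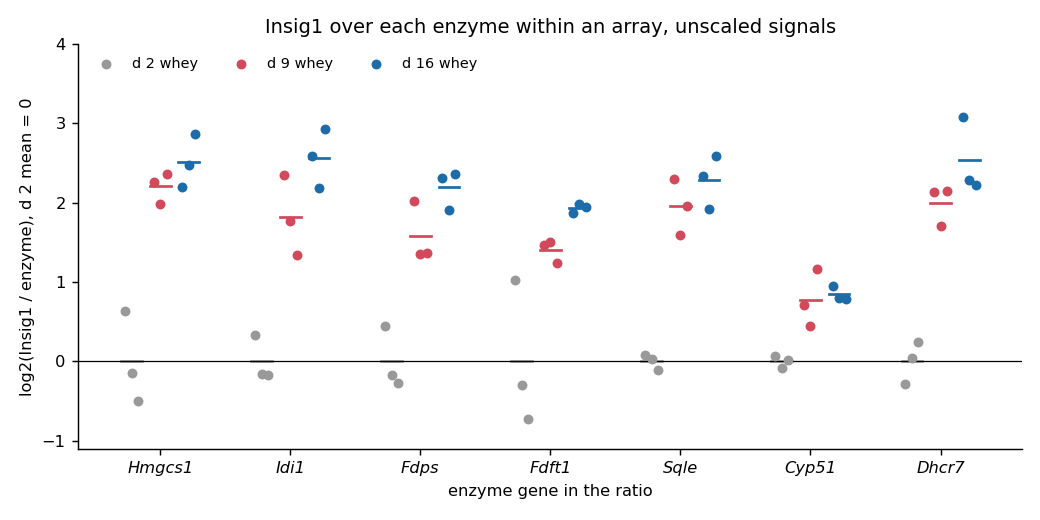
Log2 ratio of the Insig1 signal to the signal of each enzyme gene on the same array, without scaling between arrays and with the d 2 mean set to 0. Points are single arrays and bars are means of 3 dams. All ratios share the same Insig1 probe. Every d 9 and d 16 point lies above the d 2 points of its enzyme, with Cyp51 showing the smallest shift.

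Around the members, 15 other enzyme genes of the pathway were listed, and 12 of them were tested. Between d 2 and d 9, 1 rose, 1 fell and 10 did not pass, beside 17.7% of all tested probes called, with a median change of -0.11. Between d 2 and d 16, 1 rose, 2 fell and 9 did not pass, beside 28.5% called, with a median of 0.01. Lss, which closes squalene epoxide into lanosterol just after Sqle, fell by 0.86 at d 9 (limma adjusted p = 0.0114) and by 0.82 at d 16 (limma adjusted p = 0.00840). Sc4mol, now called Msmo1, is the C4 sterol oxidase that acts soon after Cyp51 and rose by 0.97 at d 9 (limma adjusted p = 0.0185) and by 1.41 at d 16 (limma adjusted p = 0.00285). Its d 9 call was lost with slide as a fixed block (0.61) and with the Tukey-Kramer test (adjusted p = 0.0757). It was also lost without d 2 dam 2 (limma adjusted p = 0.0613) and without d 9 dam 2 (0.0650). The Sc4mol call at d 16 was lost in 1 of 20 alternatives. Mvd, the last enzyme before IPP, fell by 0.53 at d 16 (limma adjusted p = 0.0454), a call that 6 of the 9 fits leaving out 1 array lost (up to 0.134). Hsd17b7 and Lbr were not tested for want of detection.

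**Figure D4:**
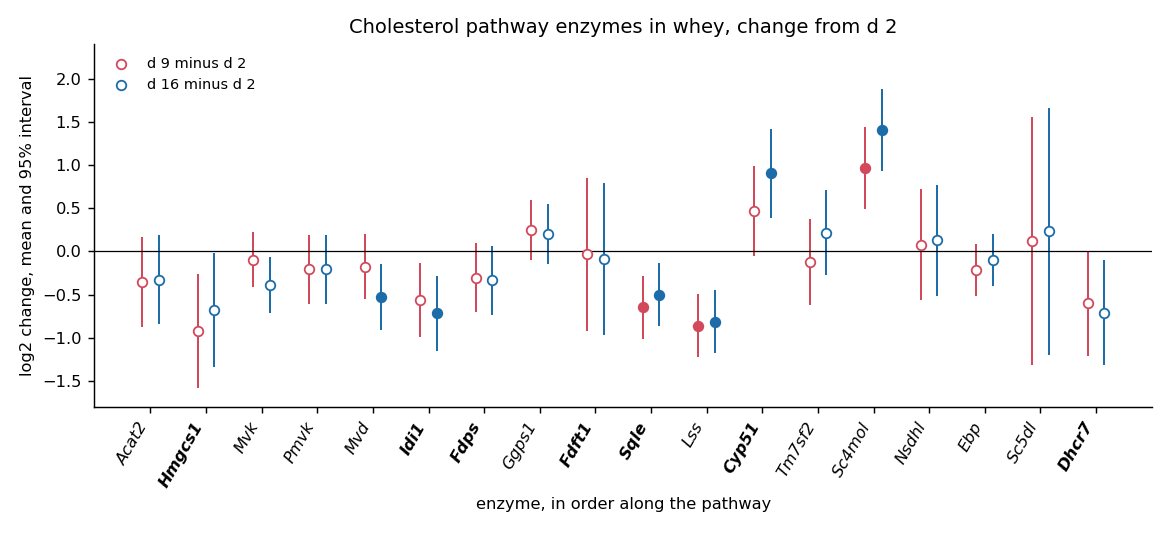
Log2 change from d 2 whey for 18 tested enzyme genes, 1 probe each, ordered along the pathway from acetyl-CoA, with members in bold, means over 3 dams and 95% intervals. Filled points passed an adjusted p of 0.05. Sqle and Lss lie below 0, though with spike-in scaling both were above 0 at d 9 and Sqle also at d 16. Cyp51 and Sc4mol follow above 0, at 0.91 and 1.41 by d 16. Between these, Tm7sf2 lies at -0.12 at d 9 and 0.22 at d 16, and neither change passed.

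Of the regulators that act with Insig1, 0 of the 3 tested were called, beside 17.7% of all tested probes at d 9 and 28.5% at d 16. So few genes do not show that the regulators stayed level. Of 6 listed, Scap, Insig2 and Mbtps1, a protease that releases SREBP, were tested, with changes of 0.27, 0.64 and 0.28 at d 9 and 0.41, 0.80 and 0.31 at d 16, none of which passed (limma adjusted p = 0.117 to 0.483). Srebf2 was well above background on 2 of the 9 whey arrays, and Srebf1 and Mbtps2 on 0. Of the 12 uptake, transport and efflux genes on the array, 7 were tested. At d 9, 1 rose, 1 fell and 5 did not pass, and at d 16, 1 rose, 0 fell and 6 did not pass, beside the same shares. Abcg2, an apical transporter that carries many small molecules into milk, rose by 1.16 at d 9 (limma adjusted p = 0.0117) and by 1.70 at d 16 (limma adjusted p = 0.00169). Its d 9 call was lost with slide as a fixed block (0.76) and with the Tukey-Kramer test (adjusted p = 0.0535). Npc2, which moves cholesterol out of lysosomes, fell by 0.96 at d 9 (limma adjusted p = 0.0247), and 4 of the 9 fits leaving out 1 array lost this call (up to 0.0842). Abca1 and Abcg1, which export cholesterol from cells, and Soat1, which esterifies it, were well above background on 0 of the 9 whey arrays.

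Markers of other sources moved over the same days, and their part in the member changes was not tested. All 6 mammary epithelium markers cleared the background criterion on each of the 9 whey arrays, and Csn2, Lalba and Wap rose by 1.05, 1.02 and 0.70 at d 16. The other 3, Csn3, Csn1s1 and Glycam1, differed by 0.64, 0.14 and -0.50 without passing (limma adjusted p = 0.0504, 0.745 and 0.103). The log2 of the summed level of the 6 ran from 19.96 to 20.03 at d 2, 19.96 to 20.29 at d 9 and 20.16 to 20.41 at d 16. Quantile normalization sets the values of top-ranked probes by rank, which also binds this sum. Wap had an SD of 0.000269 at d 2 and 4.07e-05 at d 16, so its rise is a step in rank and not a measured size. Of 7 macrophage genes, 5 were tested, and C1qb, C1qa and Cd68 rose by 3.69, 3.31 and 2.32 at d 16 while Cd14 fell by 1.88, and the summed level ran from 8.33 to 8.72 at d 2, 7.74 to 9.01 at d 9 and 9.40 to 9.53 at d 16. Emr1, the remaining tested macrophage gene, was well above background on 3 of the 9 arrays and differed by -0.36 at d 16 without passing (limma adjusted p = 0.849). Csf1r and Cd163 were well above background on 0 of the 9 arrays. The adipocyte gene Retn fell by 3.16 at d 9 and 3.44 at d 16, whereas Adipoq, Plin and Lep were well above background on 0 of the 9. Cidec, the other tested adipocyte gene, differed by 0.57 at d 9 and -0.16 at d 16 without passing (limma adjusted p = 0.275 and 0.755). None of the 6 liver markers was well above background on any whey array. Red cell markers were tested for 0 of 3 genes in whey and summed to 15.2 in serum. The 3 tested neutrophil genes, S100a8, S100a9 and Camp, differed by 1.23, 2.90 and 1.19 at d 16 without passing (limma adjusted p = 0.178 to 0.416), and of 2 tested lymphocyte genes Cd3g rose by 1.16. Mpo, a neutrophil granule enzyme, was not tested and was well above background on 3 of 3 d 2 arrays, 1 of 3 at d 9 and 0 of 3 at d 16.

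In serum, 4 of the 14 member probes were well above background, both Fdps probes, Hmgcs1 A_43_P11890 and Insig1 A_44_P406069. Fdps stood at 8.03 and 6.27 in serum against whey means of 11.91 ± 0.24 and 11.13 ± 0.22 (SD over 9 arrays), which is 14.7-fold and 29.0-fold higher in whey. Insig1 A_44_P406069 stood at 7.29 against 10.85 ± 0.87, 11.8-fold higher in whey, and Hmgcs1 at 6.22 against 7.82 ± 0.53, 3.03-fold higher in whey. Where serum was not well above background only a bound can be given, computed against the lowest serum level that was, 5.85, or the probe's own level if higher. By that bound Insig1 A_44_P143886 was at least 8.70-fold and Idi1 A_43_P12843 at least 6.33-fold higher in whey, and Cyp51 at least 1.20-fold. Other probes of the same genes gave lower bounds, 2.35-fold for Insig1 A_44_P406074, 1.04-fold for Insig1 A_44_P547168 and 2.20-fold for Idi1 A_44_P251944. In all, 10 of the 14 probes measured over 4-fold higher in whey, beside 34% of tested probes, and for 5 of the 10 the fold or its bound was itself over 4. With normexp correction 5 of the 14 measured over 4-fold higher. Sqle and Fdft1 read 5.72 and 5.12 in serum without being well above background and gave no fold. Of the other listed genes, Acat2 and Pmvk, both well above background in serum, were 6.33-fold and 4.99-fold higher in whey. By the bound, Sc4mol was at least 13.9-fold, Abcg2 at least 7.81-fold, Mylip at least 2.26-fold and Mvk at least 1.34-fold higher. Tm7sf2, Lss, Nsdhl, Sc5dl, Scap, Mbtps1 and Stard4 also measured over 4-fold higher in whey, but with serum not well above background their bound was near 1 or none could be given. The serum array stands for 1 mix, so these differences have no test.

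The genes whose profile over the 9 whey arrays was most like the mean profile of the 6 member genes measured on all 9 were found among 7248 other probes. They were Mgat1 (Pearson r = 0.916), Usf1 (0.856), Sdc1 (0.849), Pdlim3 (0.848), Rab6a (0.844), Camk1 (0.840), Sc65 (0.840) and RGD1565591 (0.832). That mean profile is nearly flat, from -0.22 to 0.25 around its centre, because Insig1 and Cyp51 move against the others. Insig1 alone was taken as a reference after its values were seen, and the probes nearest to it were those of Ppp2cb (r = 0.989), Ryk (0.989), RGD1562012 (0.987), Adipor1 (0.987) and Snf8 (0.987). The 9 arrays come from 3 dams and share the difference between d 2 and the later days, so these correlations are descriptions.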

How the data were processed

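Total RNA of whey or serum (100 ng) was amplified, labelled with Cy3 and hybridized by the authors to 1-colour Agilent whole rat genome arrays, which were scanned and read with Agilent Feature Extraction 9.5.3.1. The deposited files hold processed signal intensity per spot, background-subtracted by that software, with no scaling between arrays. Probe positions are the rn4 coordinates given in the files. A deposited table of 10 columns of quantile-normalized values was not used. Precision is limited by the number of arrays.

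The 43379 non-control spots of the 10 arrays entered as log2 intensity without the 93 to 121 outlier spots flagged on each array, were quantile normalized as in the study's methods, and were averaged per probe. None was saturated. Probes detected in a whey group (well above background and signal over 20 on at least 1 array, 16849 probes) were tested with limma 3.58.1 in R 4.3.3, with day as the factor and 3 dams per day, and p-values were Benjamini-Hochberg adjusted over all of them at 0.05. The residual spread was moderated with 1.82 prior degrees of freedom. Intervals are 95% and cover array-to-array spread only. Whey and serum were compared without a test, with 4-fold as the limit.

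The dams carry the same numbers on each day and were read as the same animals, although the study's methods do not name this pairing. Residuals of arrays of 1 dam correlated at -0.02 to 0.22 over 9 pairs, against -0.25 to 0.16 over 18 pairs of different dams. The fit with dam as a block is given where it changes a call.

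The members, the pathway and marker lists and the settings were chosen with earlier results of these data known. Genes of the lists are named where they passed in a day comparison or measured over 4-fold apart between whey and serum, and a few more to describe a list, and a gene with several probes is represented by the probe well above background on most whey arrays, then by the highest mean. Profile likeness was ranked over probes that cleared the background criterion on each of the 9 whey arrays, and the 8 nearest were kept. Alternatives were 75th percentile, spike-in (9 probes) and whey-only quantile scaling, normexp correction (offset 50), no filter, signal over 100, background on all arrays, dam and slide blocks, the Tukey-Kramer test, an intensity trend, and leaving out each array. The limma step was tested on simulated data. RefSeq promoters (GRCr8) were searched for motifs. Some genes of the pathway lists are counted in the lists but not reported here.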

Additional observations from a re-analysis of the deposited data

How the results depend on the processing

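Of the member calls, the 4 Insig1 rises at d 16 held in all 20 alternatives and those at d 9 in 20 of 21, the exception being slide as a fixed block. That block was not applied at d 16, because the d 16 arrays lay on a slide with no other whey array. The d 16 totals therefore lack the alternative that lost the d 9 calls and do not show a firmer result. The Idi1 fall at d 16 was called in 15 of 20, the Cyp51 rise in 14 of 20, and the Sqle falls in 12 of 21 at d 9 and 7 of 20 at d 16. The number of calls moved with the setting over all tested probes too. At d 9, 5 member probes were called, beside 2975 of all, and 8 with an intensity trend and robust prior, beside 3715. Fits leaving out 1 array called 4 to 6, beside 1268 to 2686. With slide as a fixed block the d 9 comparison rests on 1 d 2 array. There the member calls were lost, and calls over all probes fell as well. At d 16, 7 were called, beside 4808 of all, and 4 with spike-in scaling, beside 840. The Tukey-Kramer test is named in the study's methods, but its captions give it for RNA concentration, PCR and protein values and not for arrays. Applied here to the arrays, with its p-values adjusted over all probes, the test called 4 at d 16, beside 2678. These were the Insig1 probes, and it called no member enzyme at d 9 or d 16. Fits leaving out 1 array called 4 to 8 at d 16, beside 2742 to 4953. Between d 9 and d 16, 0 were called, beside 239 of all, and 2 with normexp correction, beside 869, and 2 with the trend, beside 689. Over the 3 days 7 were called, beside 4316 of all, and 4 without a filter, beside 3734 of 40988. With dam as a replicate block 4 were called, beside 4307. Fits leaving out 1 array called 4 to 6 (4 without any one of the d 2 or d 16 arrays), beside 2390 to 4249. With the dam block, 5 member probes were called at d 9, 8 at d 16 and 0 between d 9 and d 16, beside 3088, 4864 and 110 of all. That block changed no call other than those given with Hmgcs1, Idi1 and Sqle. Over 4-fold higher in whey than in serum were 10 probes, and 5 with normexp. With signal over 100 required, 7 member probes were detected at d 2 and 0 in serum. Spike-in scaling turned 5 called falls into uncalled positive changes, Sqle to 0.87 at d 9 and 0.18 at d 16, Lss to 0.68 at d 9, Npc2 to 0.58 at d 9 and Mvd to 0.080 at d 16. Of the log2 changes of named probes under the alternatives, 999 kept sign and side of the threshold, 46 stayed on their side while the sign of an uncalled change turned, 59 lost a call and 32 gained one. The cause of these shifts was not tested. Fdft1, Dhcr7 and Hmgcs1 A_44_P487240 were not well above background on every whey array and are limited by signal over background. Probes that cleared it on all 9 but read low at d 2 are limited too. Their d 2 signals were 28.1 to 68.0 for Sqle and 26.4 to 58.3 for Cyp51. Insig1 A_44_P406074 read 35.9 to 76.9 and A_44_P547168 read 14.1 to 34.0.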
